A study of Mus musculus with 4 samples.

Results

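Transcripts of testicular macrophages and of the major histocompatibility complex (MHC) class II pathway were examined in testes with and without Tslc1, through 10 genes fixed by name. They were 6 macrophage genes (Csf1r, Cd68, Lyz2, C1qa, C1qb and Laptm5) and 4 MHC class II genes (Cd74, H2-Aa, H2-Ab1 and H2-Eb1). Every probe set that the platform annotation assigns to exactly 1 of these genes was taken, which gave 15 of the 12488 probe sets on the array and represented all 10 genes, out of 8252 genes so named. A probe set is a group of short oligonucleotides on the array that reads 1 transcript or a few similar ones. The measure was the MAS5 signal, a linear brightness computed from such a set. Total RNA of testis from C57BL/6J males aged 16 weeks was hybridised on 4 Affymetrix Mouse Genome U74A version 2 arrays, 2 from Tslc1+/+ and 2 from Tslc1-/- mice. Tslc1 is an older name of Cadm1, which encodes an adhesion molecule of the immunoglobulin superfamily. The labels state neither the deleted part of the gene nor whether each array had an animal of its own, so the p-values here rest on array-to-array spread that could be purely technical.

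Macrophages are the most common leukocyte of the testis and lie in the interstitium beside Leydig cells and on the wall of the seminiferous tubules. They depend on the receptor encoded by Csf1r, take up debris into lysosomes that carry the CD68 protein, and secrete lysozyme and the complement component C1q. Some of them, like dendritic cells and B cells, display peptides on MHC class II molecules, each made of an alpha and a beta chain. The invariant chain, encoded by Cd74, escorts these molecules through the cell until proteases remove it. In the mouse, H2-Aa and H2-Ab1 encode the chains of the I-A molecule, and H2-Eb1 encodes the beta chain of I-E.

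Class II genes are known for a shared arrangement of promoter elements. H2-Aa and H2-Eb1 encode chains of the same family, and their probe sets gave changes of opposite sign. Neither change passed the test and both 95% intervals crossed 0, so a real difference between these genes was not shown. With that limit, the stretches before the start of H2-Aa and H2-Eb1 are printed. Both come from RefSeq, build GRCm38.p6, as the 120 bases that end just before the annotated start, written 5′ to 3′ on the gene's own strand. Capitals mark GCAACT, a part of the X box, and CTGATTGG, which holds the Y box. H2-Aa is at chr17:34287824-34287943 on the minus strand and H2-Eb1 at chr17:34305747-34305866 on the plus strand.
H2-Aa: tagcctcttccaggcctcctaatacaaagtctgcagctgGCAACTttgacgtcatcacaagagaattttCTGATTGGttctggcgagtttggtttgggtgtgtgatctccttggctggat
H2-Eb1: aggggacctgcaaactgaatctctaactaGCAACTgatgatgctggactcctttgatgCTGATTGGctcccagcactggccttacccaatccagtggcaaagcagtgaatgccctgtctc
GCAACT began 30 bases before CTGATTGG in H2-Aa and 29 bases before it in H2-Eb1. The letters were chosen after these sequences were seen, were searched on both strands over windows of 300 bases (250 before the start and 50 after), and do not overlap each other. Of 32851 RefSeq promoters of that length, 4.1% held CTGATTGG, 10.9% held GCAACT and 0.466% held both. Promoter entries were used for 6 of the 10 genes. Those of C1qa, H2-Ab1, Cd74 and Csf1r were left out, so their letters were not examined. The 6 are therefore a partial set, and their difference from all promoters was not tested. GAGGAA, the core of the site of the myeloid factor PU.1, was found in those of Laptm5, C1qb and Cd68 and not in those of Lyz2, H2-Aa and H2-Eb1, against 28.3% of all promoters. These matches describe letters, not bound sites.

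The arrays were alike in overall brightness, with median signals from 361.5 to 378. Log2 signals of tested probe sets correlated with r = 0.934 between the Tslc1+/+ arrays, 0.938 between the Tslc1-/- arrays and 0.923 to 0.936 across genotypes, and probe sets are not independent replicates. The targeted transcript was read at 3960 and 3925.2 in Tslc1+/+ against 443.5 and 444.9 in Tslc1-/- on its first tested Cadm1 probe set (log2 change -3.01, limma, Benjamini-Hochberg adjusted p = 2.31e-05). The tissue label was checked on 8 germ cell markers, of which 7 had a mean signal of at least 200. As 7975 of the 12422 non-control probe sets reached 200 too, that count alone says little about the tissue. The transition protein gene Tnp2 read between 94751.5 and 136860.5, far above the median signals.

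No macrophage or MHC class II probe set differed between the genotypes by the test across all probe sets. Of the 15 member probe sets, 3 were dim, meaning a mean signal under 200 over the 4 arrays, and were left out of the test; the other 12 represent 9 genes, all but Lyz2. Of these 12, 0 passed (limma with an intensity trend, adjusted p under 0.05), with adjusted p from 0.395 to 0.969, while 1.08% of all 7975 tested probe sets passed, 0.238% higher and 0.840% lower in Tslc1-/-. At an unadjusted p under 0.05 there were 2 of 12, or 16.7%, against 10% of all tested. All changes are Tslc1-/- minus Tslc1+/+ in log2(signal + 50), a scale that shrinks changes at low signal. In a bulk sample, fewer cells of a type and less RNA per cell cannot be told apart.

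**Figure D1:**
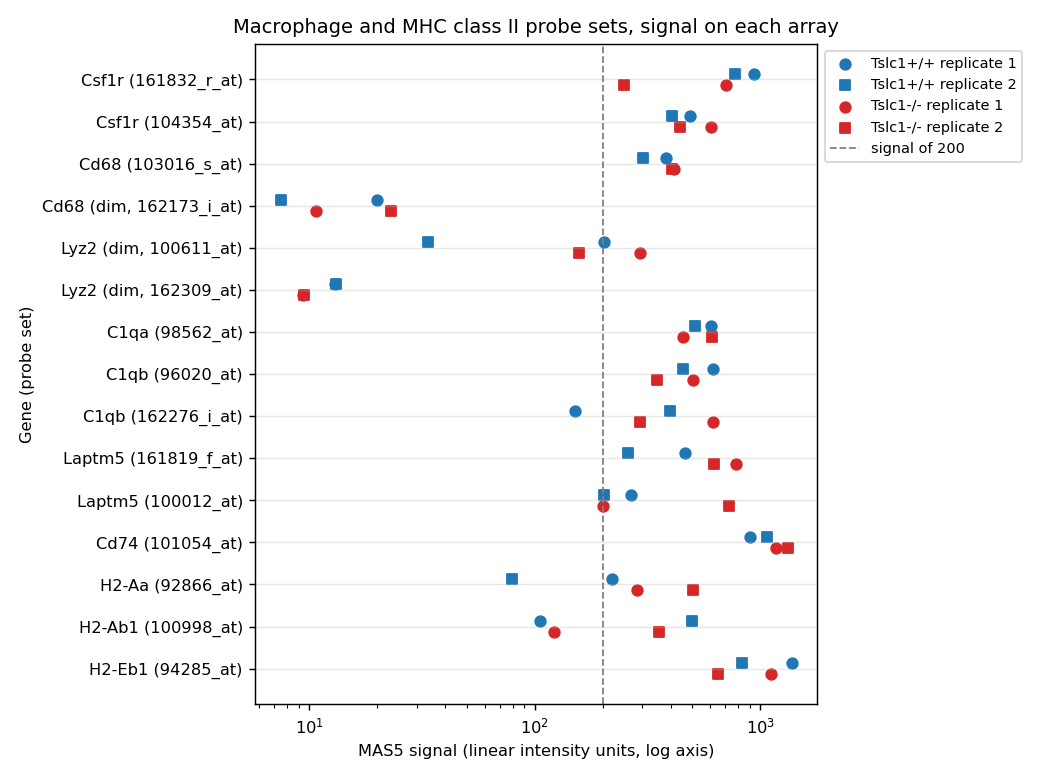
MAS5 signal (log axis) of each of the 15 macrophage and MHC class II probe sets on each of the 4 arrays, with Tslc1+/+ in blue and Tslc1-/- in red, replicate 1 as circles and replicate 2 as squares, and a dashed line at a signal of 200. The 3 dim probe sets, 1 of Cd68 and both of Lyz2, reach at most 293.4 on any array, and most other probe sets show blue and red points intermixed.

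Csf1r, the receptor for the macrophage growth factor CSF1, was read by 2 probe sets that moved apart. The first read 487.2 and 404.8 in Tslc1+/+ against 606.5 and 441 in Tslc1-/-, so the genotypes overlapped, with a change of 0.20 ± 0.33 (SE, n = 2 per genotype) and a 95% interval from -0.53 to 0.93 (limma, adjusted p = 0.887). The second read 937.1 and 768.5 in Tslc1+/+ against 704.4 and 249.2 in Tslc1-/-. Both Tslc1-/- arrays lay below both Tslc1+/+ arrays there, but the gap between the Tslc1-/- arrays (1.33 in log2) was larger than the change of -0.92 (limma, unadjusted p = 0.0448, adjusted p = 0.478). The second probe set carries the suffix _r, 1 of the letters by which the array design marks sets with less specific or fewer suitable probes, and is 1 of 4 such sets among the 12 tested. Without Tslc1-/- replicate 2, the array with the signal of 249.2, its change was -0.25.

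Cd68, a glycoprotein of macrophage lysosomes, read 380.4 and 302.9 in Tslc1+/+ against 412.4 and 407.6 in Tslc1-/-. The genotypes did not overlap, yet the difference of 0.24 was smaller than the gap of 0.29 between the Tslc1+/+ arrays (limma, adjusted p = 0.88). Its other probe set was dim at 7.5 to 23.1 on the 4 arrays. Lyz2, the lysozyme of macrophages and neutrophils, was dim on both of its probe sets. One read 203.3 and 33.6 in Tslc1+/+ against 293.4 and 157.7 in Tslc1-/-, which overlap, and the other stayed between 9.4 and 13.1. A further probe set, shared between Lyz2 and its neighbour and close paralog Lyz1 and therefore no member, was also dim, with a highest signal of 263.5. Lyz2 thus gave no usable comparison on these arrays. For the tested members, a mean signal of at least 200 does not show that the transcript was detected, as detection calls were not used. The tested probe sets of H2-Ab1 and H2-Aa had means of 270.4 and 271, below the median signals of the arrays (361.5 to 378).

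C1qa and C1qb encode chains of C1q, the recognition unit of the classical complement pathway, and lie with C1qc next to each other on chromosome 4. C1qa read 602.2 and 513.1 in Tslc1+/+ against 452.8 and 607.7 in Tslc1-/-, an overlap with a change of -0.08 and an interval from -0.74 to 0.59 (limma, adjusted p = 0.965). The first C1qb probe set read 613.8 and 455.8 in Tslc1+/+ against 504.1 and 349.6 in Tslc1-/-, a change of -0.30 (limma, adjusted p = 0.818). The second read 150.4 and 396.2 in Tslc1+/+ against 615.9 and 291.3 in Tslc1-/-, a change of 0.67 (limma, adjusted p = 0.745) that ran from 0.10 to 1.25 with 1 array left out in turn. The C1qb probe sets therefore had opposite signs, and on each the genotypes overlapped. C1qc, the third chain and no member, read 1033.3 and 1300.9 in Tslc1+/+ against 1864.1 and 1115.7 in Tslc1-/-, a change of 0.30 (limma, adjusted p = 0.751). Among these C1q genes, the interval of every tested probe set crossed 0.

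Laptm5, a lysosomal membrane protein of blood-derived cells, had the lowest adjusted p of the members. On the probe set with suffix _f it read 463.9 and 260.3 in Tslc1+/+ against 777.8 and 624.3 in Tslc1-/-. Both Tslc1-/- arrays were above both Tslc1+/+ arrays, with a change of 0.90 ± 0.35 (SE, n = 2 per genotype), an interval from 0.13 to 1.68 and adjusted p = 0.395 (limma, unadjusted p = 0.0264), so it did not pass. Over the alternatives in processing its adjusted p ran from 0.225 to 0.806. The other probe set read 267.8 and 202.2 in Tslc1+/+ against 200.9 and 727.8 in Tslc1-/-. Only Tslc1-/- replicate 2 was high on it, and without that array the change of 0.64 became -0.17 (limma, adjusted p = 0.776 with all arrays).

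Cd74, the invariant chain, read 901 and 1065.3 in Tslc1+/+ against 1171 and 1325.6 in Tslc1-/-. The genotypes did not overlap, and the change of 0.33 was larger than the gap between the arrays of either genotype (0.23 and 0.17). It was a 1.26-fold difference with an interval from -0.12 to 0.78, and did not pass (limma, adjusted p = 0.658). With 1 array left out in turn, the change stayed between 0.22 and 0.45.

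The chains of I-A gave changes of opposite sign. H2-Aa, the alpha chain, read 220.5 and 79 in Tslc1+/+ against 284.2 and 500.8 in Tslc1-/-. Its change of 1.20 ± 0.63 (SE, n = 2 per genotype) had the largest size among the 12 tested probe sets, but the interval ran from -0.20 to 2.60 (limma, adjusted p = 0.586). With 1 array left out in turn it ran from 0.67, without Tslc1+/+ replicate 2, to 1.73, so its size and its place as the largest rested on single arrays. H2-Ab1, the beta chain, read 105.6 and 500.1 in Tslc1+/+ against 121.3 and 354.7 in Tslc1-/-. In both genotypes replicate 1 was low and replicate 2 high, by 1.82 in Tslc1+/+ and 1.24 in Tslc1-/-, against a change of -0.15 with an interval from -1.83 to 1.53 (limma, adjusted p = 0.969). Between the Tslc1+/+ arrays the probe sets went opposite ways, with H2-Aa at 79 on the array where H2-Ab1 was at 500.1, while between the Tslc1-/- arrays both were higher on replicate 2, H2-Aa by 0.72.

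H2-Eb1 read 1378.3 and 830.2 in Tslc1+/+ against 1117.1 and 646 in Tslc1-/-. The genotypes overlapped, replicate 1 was the higher array in each, and the change was -0.32 with an interval from -1.0 to 0.37 (limma, adjusted p = 0.792). Its partner gene H2-Ea, the I-E alpha chain, is known to be defective in C57BL/6 mice and is listed as a transcribed pseudogene in RefSeq. The H2-Ea probe set was dim, at 278.8 and 183.9 in Tslc1+/+ against 125.6 and 181.6 in Tslc1-/-.

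**Figure D2:**
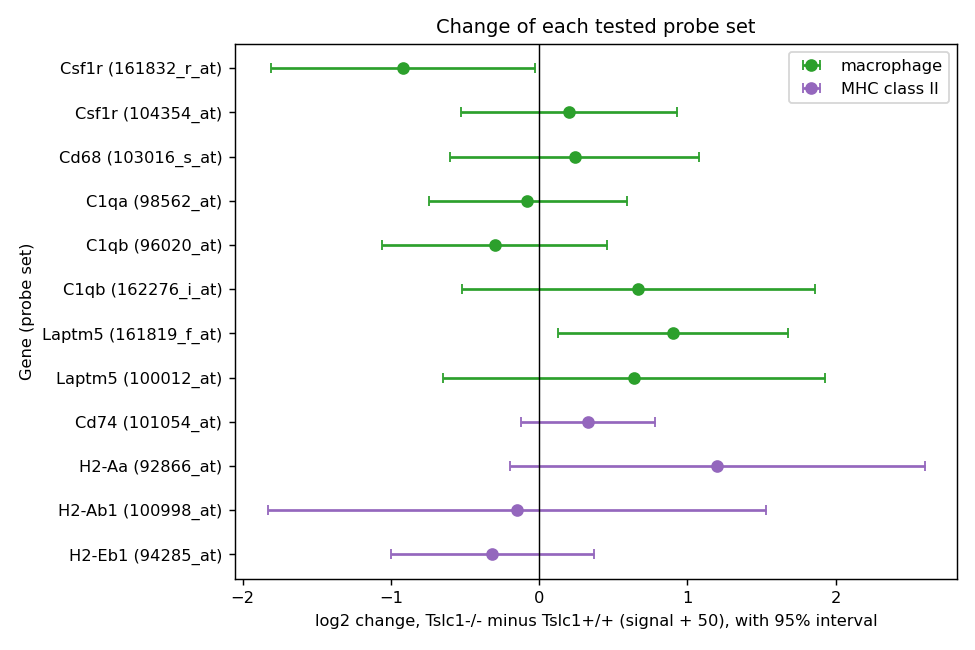
Change in log2(signal + 50), Tslc1-/- minus Tslc1+/+, of the 12 tested probe sets, with 95% intervals from the limma fit, macrophage genes in green and MHC class II genes in purple. For 10 of the 12 the interval crosses 0, the exceptions being 1 probe set of Csf1r and 1 of Laptm5, on opposite sides.

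As a group the members showed no common direction. Of the 12 tested probe sets, 7 had a positive change and 5 a negative one, or 58.3% positive against 52.5% of all tested. The median change was 0.22, against 0.02 over all tested probe sets. It was 0.22 over the 8 macrophage probe sets, of which 5 were positive, and 0.09 over the 4 MHC class II probe sets, of which 2 were positive. Over the 5 member probe sets with a mean signal of at least 500 the median was -0.08, and over the 8 without a suffix letter it was 0.06. Genotypes did not overlap on 5 of the 12, or 41.7%, against 40.0% of all tested. Of these, 4 were higher in Tslc1-/- (33.3% of the 12, against 21.5%) and 1 lower (8.33%, against 18.5%).

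The spread between arrays of the same genotype was wide for these genes. The median gap between the Tslc1+/+ arrays was 0.36 for the 12 probe sets and 0.25 for all tested, and between the Tslc1-/- arrays it was 0.60 against 0.24. The members were also dimmer, with a median mean signal of 483 against 777 for all tested, and the part of signal level in these gaps was not tested. In 9 of the 12, or 75%, the larger of these gaps exceeded the difference between genotypes, as in 72.7% of all tested. The exceptions were Cd74, H2-Aa and the Laptm5 probe set with suffix _f. The tested member probe sets had mean signals from 270.4 to 1116, and the median half-width of their unadjusted 95% intervals was 0.81. The adjusted threshold is stricter than these intervals. Changes of 0.90 for Laptm5, -0.92 for Csf1r and 1.20 for H2-Aa did not pass it. Changes larger than 0.81 could therefore also go undetected with 2 arrays per genotype.

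**Figure D3:**
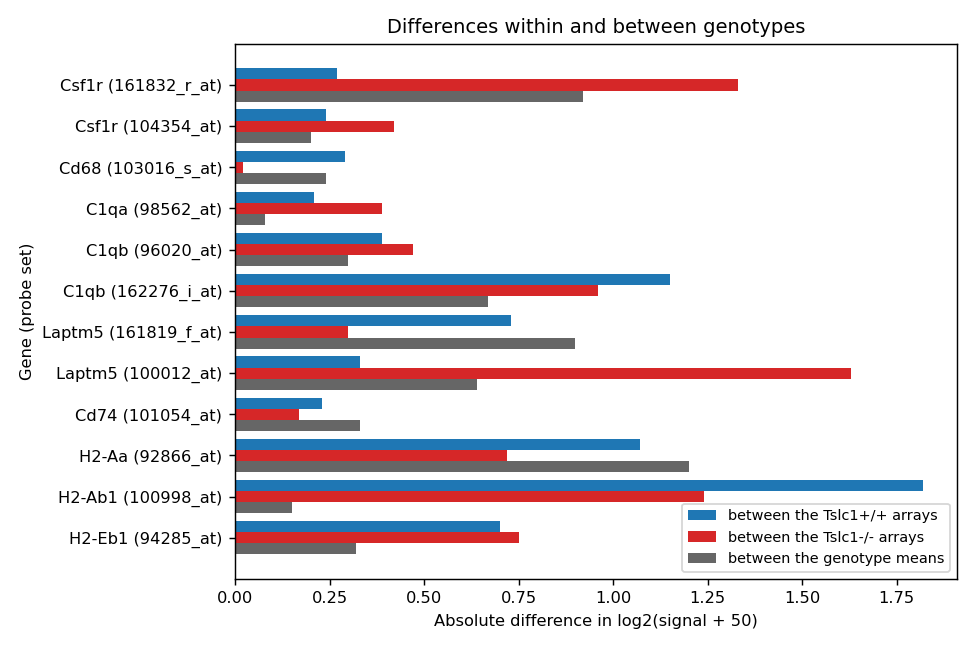
Absolute difference in log2(signal + 50) for the 12 tested probe sets, between the 2 Tslc1+/+ arrays (blue), between the 2 Tslc1-/- arrays (red) and between the genotype means (grey). The grey bar is shorter than at least 1 of the other bars in 9 of the 12 and longest only for Cd74, H2-Aa and 1 probe set of Laptm5.

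Each array was also described by how far the members lay from their own means over the 4 arrays. For the 12 probe sets, the median deviation was -0.02 and -0.13 on the Tslc1+/+ arrays and 0.17 and 0.13 on the Tslc1-/- arrays. For the 4 MHC class II probe sets it was -0.17 and -0.12 against 0.15 and 0.40, with 3 of the 4 above their own mean on each Tslc1-/- array and 1 of 4 on each Tslc1+/+ array. For the 8 macrophage probe sets it was 0.02 and -0.14 against 0.17 and 0.00. The Tslc1-/- arrays were thus a little above the others at the level of medians for MHC class II, while its members H2-Ab1 and H2-Eb1 had negative changes.

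Other genes of the class II pathway were not called either. Of 19 listed genes, 17 were on the array and 12 were tested; 0 passed (limma, 0 at an unadjusted p under 0.05) and their median change was 0.00, with 6 positive. Ciita, the coactivator that switches class II genes on, read 115.2 and 517.4 in Tslc1+/+ against 357.9 and 153.2 in Tslc1-/-, a change of -0.09 (limma, adjusted p = 0.983). H2-DMa and H2-DMb1, which form the molecule that loads peptide onto class II, had changes of 0.23 and 0.88 (limma, adjusted p = 0.788 and 0.597). On each the genotypes overlapped, and the H2-DMb1 probe set carries the suffix _g. Ctss, the protease cathepsin S that trims the invariant chain, had a change of 0.50, and both Tslc1-/- arrays (395.3 and 554.6) were above both Tslc1+/+ arrays (261.7 and 381). It did not pass (limma, adjusted p = 0.736). Ctsl, cathepsin L, had the smallest p of the list with a change of -0.24 (limma, adjusted p = 0.543). Of 7 tested MHC class I pathway genes 0 passed (limma, 1 at an unadjusted p under 0.05), with H2-K1 at 0.25 and the proteasome activator gene Psme1 at -1.24 (limma, adjusted p = 0.563 and 0.407).

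Among further macrophage and myeloid genes, 1 fell. Of 35 listed genes, 29 were on the array, 13 were dim and 16 were tested, with a median change of 0.06, 10 of them positive. Several defining markers were dim: Adgre1, which encodes the F4/80 antigen, read at most 187.7 on either probe set, and the integrin gene Itgam read at most 80. The pan-leukocyte gene Ptprc read at most 40.4 on any of its 3 probe sets. Cd14, a receptor for bacterial lipopolysaccharide, had a change of 0.26, the mannose receptor gene Mrc1 one of 0.21 and the chemokine receptor gene Cx3cr1 one of -0.04 (limma, adjusted p = 0.71, 0.89 and 0.97). Over the 16 tested genes the changes ran from -0.70 for Msr1 to 0.84 for Cybb (limma, adjusted p = 0.651 and 0.788). The other probe set of Msr1 was dim, with a change of 0.83. Csf1, the ligand of the Csf1r protein, read 561.2 and 761.7 in Tslc1+/+ against 701.9 and 665.2 in Tslc1-/-, a change of 0.06 (limma, adjusted p = 0.969).

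The gene that fell was Aif1, a calcium-binding protein used as a macrophage marker under the name Iba1. Which testis cells gave its signal here was not tested. With a mean signal of 9496, against 1633 for the next brightest, Cd14, Aif1 was the brightest of the 16 tested genes of the list. It read 11174.8 and 11278.6 in Tslc1+/+ against 7530.4 and 7998.5 in Tslc1-/-, with no overlap and a change of -0.53 ± 0.10 (SE, n = 2 per genotype; limma, adjusted p = 0.0278). Leaving out each array in turn ended the call every time (limma, adjusted p from 0.107 to 0.18), as did refitting with no signal filter (0.0647), with quantile normalization (0.0548) and without the intensity trend (0.566), while the change stayed between -0.57 and -0.46. Of 7 tested germ cell markers, 2 also fell and the other 5 did not pass, with a median of -0.36 over the 7. Among the 5, Tnp2 was at -0.39, Dazl at -0.36, Prm1 at -0.13 and Ldhc at -0.02. Only 1 marker had a positive change on its brightest tested probe set, Prm2 at 0.18, with a mean signal of just 277. Dazl had a second tested probe set, with a mean signal of 571 and a change of 0.25 (limma, adjusted p = 0.842). The germ cell phosphoglycerate kinase Pgk2 fell by 0.78 and Tnp1 fell by 0.53 (limma, adjusted p = 0.00495 and 0.0156). Without the intensity trend neither passed, as 0 probe sets did. The Tnp1 probe set carries the suffix _r, and its other probe set was dim, with a mean signal of 26.8 and a change of -0.02. The part of these germ cell genes in the fall of Aif1 was not tested.

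Markers of other cells that can carry class II molecules or lie near macrophages gave no calls. In the B cell, dendritic cell, T cell, neutrophil and mast cell, Sertoli cell, complement, growth factor and epididymis lists, 0 genes had an unadjusted p under 0.05 (limma), and in the Leydig cell and erythrocyte lists 2 each did. Of 5 tested B cell markers 0 passed, with Cd79a, a chain of the B cell receptor complex, at 0.90 (limma, adjusted p = 0.533) and Ms4a1 at 0.13. Of 3 tested dendritic cell markers 0 passed and all had negative changes, with the integrin gene Itgax at -0.45 (limma, adjusted p = 0.727) and the receptor gene Flt3 at -0.07. Of 3 tested T cell markers 0 passed, with Cd4 at 0.28 (limma, adjusted p = 0.75). Of 5 tested neutrophil and mast cell markers 0 passed, with a median of 0.00, the neutrophil elastase gene Elane at 0.43 and the myeloperoxidase gene Mpo at -0.85 (limma, adjusted p = 0.673 and 0.776). The 2 tested erythrocyte genes had changes of opposite sign, each with no overlap between the genotypes. The alpha-globin gene Hba-a1 had a change of 0.75, with 897.4 and 1135.7 in Tslc1+/+ against 1863.3 and 1615.6 in Tslc1-/- (limma, adjusted p = 0.144). Alas2, which encodes the first enzyme of haem synthesis in red cell precursors, had a change of -0.53, with 966.2 and 1036.9 in Tslc1+/+ against 627.4 and 736.8 in Tslc1-/- (limma, adjusted p = 0.475). Their part in the changes of leukocyte genes was not tested. Of 7 Leydig cell markers 0 passed, and 3 had positive changes. Those with an unadjusted p under 0.05 had opposite signs. The steroid hydroxylase gene Cyp17a1 was at -0.58 and the steroid dehydrogenase gene Hsd3b6 at 1.07 (limma, adjusted p = 0.127 and 0.173). Hsd3b6 read 345.1 and 328.3 in Tslc1+/+ against 806 and 719.7 in Tslc1-/-, on a probe set with suffix _f. Hsd3b1 went the other way at -0.56, on a probe set without a suffix letter (limma, adjusted p = 0.663). The brightest Leydig cell marker, Nr5a1, was at -0.05 (limma, adjusted p = 0.926). Of 6 Sertoli cell markers 0 passed, with Rhox5 at 0.51 and Clu at -0.03 (limma, adjusted p = 0.522 and 0.942). The 4 tested complement genes had a median of 0.29 with C1ra at 0.65, the growth factor and chemokine list a median of 0.14 with Cx3cl1 at 0.21, and the only tested epididymis gene, Adam7, stood at -0.50; none passed (limma, adjusted p = 0.607, 0.913 and 0.851).

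**Figure D4:**
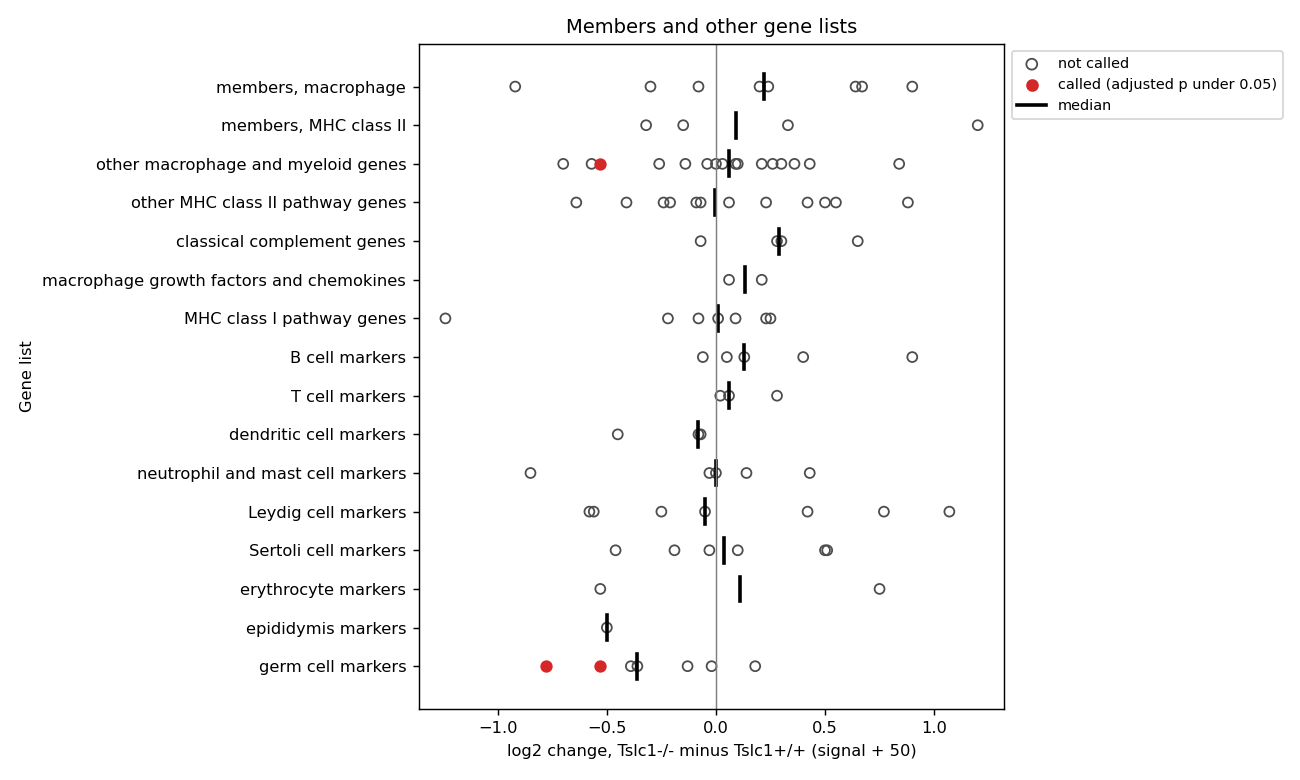
Change in log2(signal + 50), Tslc1-/- minus Tslc1+/+, of the tested member probe sets (top 2 rows) and of the brightest tested probe set of each gene in the other lists, with the median as a black bar. Filled red points passed (limma, adjusted p under 0.05): Aif1 among macrophage and myeloid genes and Pgk2 and Tnp1 among germ cell markers, while the members spread on both sides of 0 with 0 passing.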

How the data were processed

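The deposited file holds 1 linear intensity per probe set and array. Per the labels' protocol text, the authors obtained it with MAS5, the Affymetrix array software, and scaled each array to a target of 1000. Such scaling hides a change in total RNA, and detection calls were not used here. Gene names came from the platform annotation, and symbols were updated by Entrez identifier through RefSeq (GRCm38.p6). Of 12488 probe sets, 66 controls were left out, and of the other 12422, 10833 had 1 gene, 396 several and 1193 none. Values were log2(signal + 50) over the 7975 probe sets whose mean signal reached 200. Genotypes were compared with limma 3.58.1 under R 4.3.3 (eBayes with an intensity trend), two-sided, Benjamini-Hochberg adjusted over all tested probe sets. The procedure was also run on simulated data whose noise was set by signal level alone. The intensity trend assumes the same, so that run cannot test this assumption. A permutation of 2 against 2 arrays cannot give p under 0.333. Genes of the lists stand for their brightest tested probe set. From each list the called genes, the gene of smallest p and the brightest gene were named by rule; other list genes were named for their role or their opposite change, after their values were seen. The members and lists were chosen with earlier results of these data known. Alternatives varied the pseudocount (16, 100), signal filter (none, 500), trend, normalization, suffixed probe sets, arrays and the replicate block.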

Additional observations from a re-analysis of the deposited data

How the results depend on the processing

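Under none of the 13 alternatives did a macrophage or MHC class II probe set pass (limma, lowest adjusted p = 0.148, with the replicate block; 0 to 2 of them at an unadjusted p under 0.05). Of 145 changes of single member probe sets recomputed, 137 kept their sign and 8 did not, each with 1 array left out. With 1 array left out, the change ranged from -0.01 to 0.41 for Csf1r without a suffix letter and from -1.59 to -0.25 with one. The range was 0.10 to 0.38 for Cd68 and -0.27 to 0.12 for C1qa. For C1qb it was -0.54 to -0.06 without a suffix letter and 0.10 to 1.25 with one. For Laptm5 it was -0.17 to 1.46 without a suffix letter and 0.54 to 1.27 with one. Among class II genes it was 0.22 to 0.45 for Cd74 and 0.67 to 1.73 for H2-Aa. For H2-Ab1 it was -1.06 to 0.76 and for H2-Eb1 -0.69 to 0.06. The median change of the members was -0.08 where the mean signal reached 500 and 0.06 without suffixed probe sets, for all members and for the macrophage genes alike. With 1 array left out it was 0.15 to 0.27 for all members, 0.09 to 0.21 for macrophage genes and 0.13 to 0.56 for MHC class II genes. Over all tested probe sets the 86 calls became 37 to 43 with 1 array left out and 0 without the intensity trend (limma, 638 at an unadjusted p under 0.05). With the replicate block there were 239. Deviations of arrays with the same replicate number were not correlated across probe sets (r = -0.00119). The labels do not say what a replicate number shares, and 1 correlation over all probe sets cannot settle it. The causes of these shifts were not tested. Precision is limited by having 2 arrays of each genotype.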
